A study of Mus musculus with 6 samples.

Results

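The delta glutamate receptor and cerebellin genes examined here were 8 genes chosen by symbol from 48709 in the count table: the receptor gene Grid1, the scaffold gene Grid2ip, the cerebellins Cbln1, Cbln2, Cbln3 and Cbln4, the related ligand C1ql1, and Gm43398, an unnamed gene model on the chromosome of Grid2ip. Messenger RNA of whole cerebellum was sequenced from 3 SCA7 knock-in samples and 3 wild-type samples of C57BL/6J mice, all aged 40 weeks. The knock-in mice, labelled Kihet, carried an Atxn7 allele encoding 140 glutamines beside one encoding 5, and the wild-type mice carried no knock-in allele. The allele lies in the Atxn7 gene itself, so it is not limited to one cell type, and the labels do not say whether each sample came from a separate mouse or give the sex of the mice. SCA7, spinocerebellar ataxia type 7, is a polyglutamine disease with cerebellar and retinal degeneration.

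Parallel fibres, the axons of cerebellar granule neurons, contact the spines of Purkinje cells through a bridge of secreted and membrane proteins. Cerebellins, proteins of the C1q family, are released by the granule neuron and bind neurexins on its own membrane and a delta-type glutamate receptor on the Purkinje cell. In mice, loss of Cbln1 leaves many spines without a presynaptic partner and causes ataxia. Grid2ip encodes delphilin, a scaffold protein that binds the delta receptor of Purkinje cells from inside the spine, and C1ql1 is a ligand that climbing fibres of the inferior olive supply to the same cells, where the adhesion receptor Adgrb3 binds it.

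In the knock-in samples, Grid2ip, its downstream neighbour Gm43398 and Cbln3 were lower than in wild type, Cbln1 was lower by a smaller fold and did not pass the threshold, and Grid1, Cbln2, Cbln4 and C1ql1 did not pass. All 8 genes passed the filter on low counts. In edgeR's quasi-likelihood test, 3 of the 8 were called lower and 0 higher at an adjusted p at or under 0.05 over all genes. Of the 16699 genes tested, 1.90% were called, 1.28% lower and 0.629% higher. At an unadjusted p under 0.05 there were 4, all lower, against 18.1% of all genes in either direction. DESeq2 called 4 lower and 0 higher, against 3.05% and 2.41% of the 16461 genes to which it gave an adjusted p. The groups did not overlap for 4 members, all lower in knock-in. Over all genes tested they did not overlap for 23.8%, with 11.5% lower and 12.3% higher. The median log2 fold change was -0.12 over the 8 members and 0.007 over all genes. The genes were picked with the knock-in results of these counts known, so the fold changes and adjusted p-values that follow describe them and are no test of the family.

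**Figure D1:**
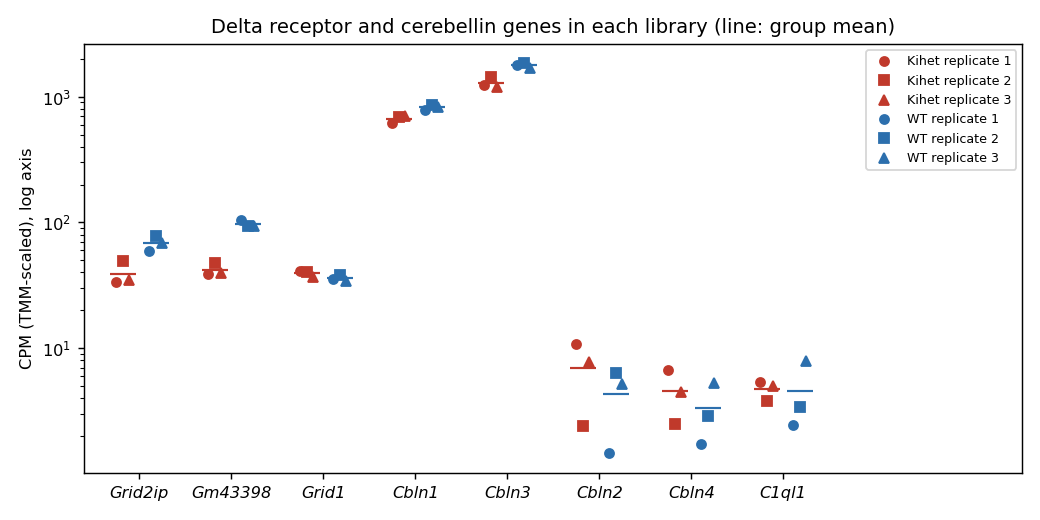
CPM, scaled with TMM and drawn on a log axis, for the 8 genes in each of the 3 knock-in (red) and 3 wild-type (blue) libraries, with a line at each group mean. The red symbols lie below the blue ones for Grid2ip, Gm43398, Cbln1 and Cbln3, and the groups overlap for Grid1, Cbln2, Cbln4 and C1ql1.

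Library totals were between 34630391 and 39826478 counts in knock-in and between 39528292 and 49127673 counts in wild type. Values are CPM, the counts scaled to TMM-adjusted library size, unless another scale is named. The targeted gene Atxn7 had 22.4, 24.1 and 22.1 CPM in knock-in and 25.9, 26.2 and 22.6 CPM in wild type, with a log2 fold change of -0.12 ± 0.09 (SE; edgeR adjusted p 0.521). This does not check the genotype, since counts per gene do not separate the alleles. The defining markers of cerebellum were present: Gabra6, of granule neurons, had 705 to 790 CPM in knock-in and 756 to 913 CPM in wild type, and Pcp2, of Purkinje cells, had 338 to 475 CPM in knock-in and 379 to 491 CPM in wild type. Libraries differed in markers of tissue from outside the cerebellum. The summed CPM of 12 brainstem markers was 33.3, 4.77 and 16.7 in knock-in replicates 1, 2 and 3 and 2.73 to 4.39 in wild type, so only knock-in replicate 2 lay near the wild-type range. Dbh, of noradrenergic neurons, made up much of it, with 14.4, 1.78 and 9.94 CPM in knock-in and 0.369, 1.84 and 0 CPM in wild type. Hoxa2 and Hoxb3 did not follow the sum. They were at 0 in knock-in replicate 2 and wild-type replicate 1, and highest in wild-type replicate 3, at 0.336 and 0.362 CPM. Of the 12 markers 4 were tested: Hoxb3, Tph2, Slc5a7 and Dbh. None was called, with edgeR adjusted p-values between 0.0818 and 0.855. A fit with the mean log2 CPM of these 4, each with equal weight, as a term called 0 members and 3 genes in all. In it the SE of Grid2ip rose from 0.15 to 0.21 and that of Cbln1 from 0.08 to 0.14. Because the summed markers were higher in knock-in replicates 1 and 3, such a term and genotype cannot be fully told apart. The part of such tissue in the results was not tested. In bulk tissue, fewer cells of a type and less RNA per cell cannot be told apart.

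Grid2ip (ENSMUSG00000010825) lies at chr5:143357338-143392152 on the plus strand of mm10. It had 33.7, 49.2 and 34.7 CPM in knock-in replicates 1, 2 and 3 and 58.9, 78.3 and 68.3 CPM in wild-type replicates 1, 2 and 3. The highest knock-in library stayed below the lowest wild-type library, and replicate 2 was the highest of its group in both genotypes. The means were 39.2 ± 8.68 CPM in knock-in and 68.5 ± 9.72 CPM in wild type (SD, n = 3 each). The edgeR log2 fold change was -0.80 ± 0.15 (SE, adjusted p 0.0298). The call was lost when any library other than knock-in replicate 2 was left out, at adjusted p-values between 0.0692 and 0.129, while the fold change stayed between -0.91 and -0.70. Without knock-in replicate 2 it was -1.01 with an adjusted p of 0.00161.

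RefSeq (GRCm38.p6) gives Grid2ip 2 promoter windows, each from 250 bases before to 50 bases after a transcript start. These are shown because the gene fell and because its counts do not say which start was used. Both windows are on the plus strand, at chr5:143363663-143363962 and chr5:143369824-143370123. They lie downstream of the gene start given above, chr5:143357338, for which no window is shown. Capitals mark the GC box GGGCGG or its reverse complement.
Grid2ip, upstream start: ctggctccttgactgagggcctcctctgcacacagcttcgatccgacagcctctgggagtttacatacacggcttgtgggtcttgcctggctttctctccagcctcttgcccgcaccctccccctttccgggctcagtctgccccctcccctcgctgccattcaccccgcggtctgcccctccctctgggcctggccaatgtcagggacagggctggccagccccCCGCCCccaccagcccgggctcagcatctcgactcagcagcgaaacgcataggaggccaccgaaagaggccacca
Grid2ip, downstream start: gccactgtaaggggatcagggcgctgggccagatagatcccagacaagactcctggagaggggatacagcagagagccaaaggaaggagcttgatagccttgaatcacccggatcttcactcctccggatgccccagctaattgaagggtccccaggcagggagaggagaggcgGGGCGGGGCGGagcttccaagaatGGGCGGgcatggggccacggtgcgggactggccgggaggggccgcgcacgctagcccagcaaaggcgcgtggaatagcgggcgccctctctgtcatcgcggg
The upstream window holds 1 match and the downstream window 3, of which a pair overlap. On either strand, GGGCGG occurs in 35.7% of the 32851 promoter windows of that table. AGGTCA, a core sequence bound by ROR nuclear receptors, and CAGATG, an E-box bound by NeuroD factors, occur in 16.3% and 17.2% of them on either strand and in neither Grid2ip window. A match of letters is a description and not a binding site.

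Gm43398 (ENSMUSG00000105594) lies at chr5:143395503-143398244, also on the plus strand, and starts 3350 bases beyond the annotated end of Grid2ip. The annotation (GENCODE M21) gives it 1 exon of 2742 bases and the class TEC, given to loci that still await experimental proof, and it shares no exon base with Grid2ip. RefSeq ends Grid2ip at 143391779 and its table used here has no row of the name Gm43398. The model had 38.6, 47.1 and 39.3 CPM in knock-in replicates 1, 2 and 3 and 105, 94.0 and 93.4 CPM in wild-type replicates 1, 2 and 3. Every knock-in library lay far below every wild-type library, and the libraries of each group lay close together. In edgeR the log2 fold change was -1.23 ± 0.10 (SE, adjusted p 0.000607), and the gene stayed called when each library in turn was left out, with fold changes between -1.33 and -1.17. The brainstem covariate ended the call, at -1.01 and an adjusted p of 0.0987.

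**Figure D2:**
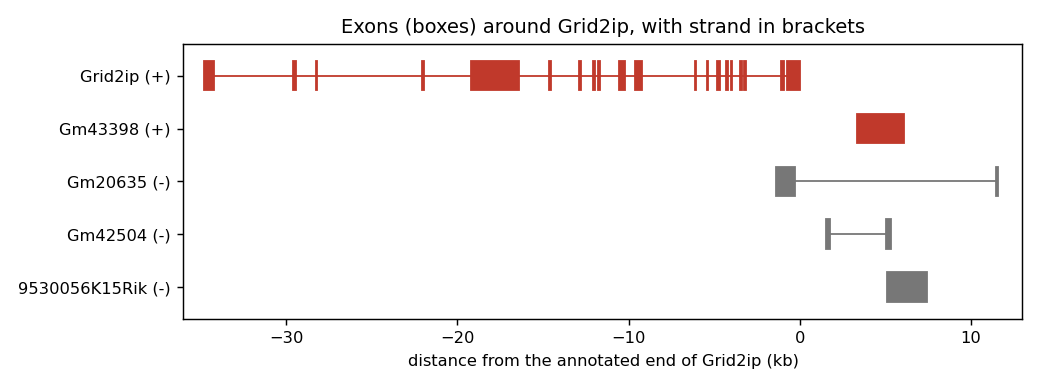
Exons (boxes) of Grid2ip and Gm43398 on the plus strand (red) and of 3 genes on the minus strand (grey), drawn to scale by their distance in kb from the annotated end of Grid2ip. Gm43398 starts 3350 bases beyond that end, and parts of it face exons of Gm42504 and 9530056K15Rik.

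Exons on the opposite strand cover 39.5% of the exon of Gm43398 and 9.52% of the exon bases of Grid2ip. Whether the counting used strand is not given in the sources used here. Reads from these stretches therefore cannot be assigned with certainty. The minus-strand genes held few counts: at most 20 for Gm20635, 2 for Gm42504 and 17 for 9530056K15Rik in any library, against 1410 to 1878 counts of Gm43398 in knock-in and 3616 to 5146 in wild type.

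Within a library, the ratio of Gm43398 to Grid2ip counts does not depend on scaling. Its log2 was 0.19, -0.06 and 0.18 in knock-in replicates 1, 2 and 3 and 0.84, 0.26 and 0.45 in wild-type replicates 1, 2 and 3. The groups did not overlap, and wild-type replicate 1 was the highest. The mean difference in log2 ratio, knock-in minus wild type, was -0.42, and it was -0.25 without wild-type replicate 1 and -0.54 without wild-type replicate 2. No p is given, since 3 against 3 samples cannot go below an exact two-sided p of 0.10. With the counts of both models summed as 1 gene, an alternative chosen after the data were seen, the log2 fold change was -1.04 (edgeR adjusted p 0.00219).

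Grid1 (ENSMUSG00000041078, chr14:34820108-35583379, plus strand) encodes the delta receptor subunit GluD1, which is found at synapses in much of the brain. It had 41.0, 40.6 and 36.9 CPM in knock-in and 35.8, 38.0 and 34.1 CPM in wild type. The knock-in libraries lay toward the high side and the groups overlapped through knock-in replicate 3. Its edgeR log2 fold change, 0.14 ± 0.08 (SE), had an adjusted p of 0.432. Grid1 lies 20.7 Mb from Atxn7, on the chromosome that carries the knock-in allele, and Cbln3 lies 41.8 Mb from it. Linkage to the allele was not tested.

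Cbln3 and Cbln1 were the abundant ligands. Cbln3 encodes a cerebellin of granule neurons that in mice is secreted together with Cbln1. It (ENSMUSG00000040380, chr14:55878913-55884392, minus strand) had 1239, 1428 and 1199 CPM in knock-in replicates 1, 2 and 3 and 1802, 1836 and 1696 CPM in wild-type replicates 1, 2 and 3. All 3 knock-in libraries lay below all 3 wild-type libraries, and knock-in replicate 2 was the highest of its group. In edgeR it fell by 0.46 on the log2 scale, with an SE of 0.08 and an adjusted p of 0.0227. The call was lost when any library other than knock-in replicate 2 was left out, at adjusted p-values between 0.0584 and 0.124 and fold changes between -0.51 and -0.41.

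Cbln1 (ENSMUSG00000031654, chr8:87468405-87472609, minus strand), the cerebellin that bridges the parallel fibre synapse, had 613, 684 and 700 CPM in knock-in and 780, 863 and 832 CPM in wild type. The groups did not overlap, and knock-in replicate 1 was the lowest of all 6. In edgeR the log2 fold change, -0.31 ± 0.08 (SE), had an adjusted p of 0.084, above the threshold. DESeq2 called it at an adjusted p of 0.0156, and offsets for GC content and exon length at 0.00324 with a fold change of -0.44. It was not called with any 1 library left out, at edgeR adjusted p-values between 0.0553 and 0.264. The brainstem covariate gave -0.24 without a call (edgeR adjusted p 0.856).

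The promoter window of Cbln3 in RefSeq (GRCm38.p6, minus strand, chr14:55884207-55884506) is shown because this gene fell. It has none of the 3 motifs named above on either strand and so no capitals.
Cbln3: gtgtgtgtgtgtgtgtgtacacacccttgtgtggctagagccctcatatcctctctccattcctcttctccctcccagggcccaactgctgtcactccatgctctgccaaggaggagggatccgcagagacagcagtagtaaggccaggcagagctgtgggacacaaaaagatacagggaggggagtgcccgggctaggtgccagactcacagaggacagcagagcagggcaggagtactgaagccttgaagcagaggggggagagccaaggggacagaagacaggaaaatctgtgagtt

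The cerebellins are paralogues, so their counts depend on reads being told apart. Between pairs of the 4 coding sequences (GENCODE M21), identity over aligned bases was 64.3% to 73.7%, and the longest identical run was 11 to 21 bases. Cbln1 and Cbln3 shared 69.2% of aligned bases and at most 21 bases in a row. To show this spacing of differences, a window of 60 coding bases from exon 2 of each gene is printed, on the minus strand of mm10 at chr8:87471704-87471763 for Cbln1, chr14:55883479-55883538 for Cbln3 and chr2:172038986-172039045 for Cbln4. Capitals mark the bases that differ from Cbln1, 20 in Cbln3 and 17 in Cbln4.
Cbln1: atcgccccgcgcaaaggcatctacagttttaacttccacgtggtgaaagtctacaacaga
Cbln3: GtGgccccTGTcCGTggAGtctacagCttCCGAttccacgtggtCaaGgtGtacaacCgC
Cbln4: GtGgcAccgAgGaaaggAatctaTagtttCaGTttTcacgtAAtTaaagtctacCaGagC

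The ratio of Cbln3 to Cbln1 counts within a library was 2.02, 2.09 and 1.71 in knock-in and 2.31, 2.13 and 2.04 in wild type. The groups overlapped, and the mean difference on the log2 scale was -0.16, with -0.07 without knock-in replicate 3 and -0.21 without knock-in replicate 2. Grid2ip over Cbln1 was 0.055, 0.072 and 0.0496 in knock-in and 0.0755, 0.0908 and 0.0822 in wild type, with no overlap and a mean log2 difference of -0.51. Beside the Purkinje and granule neuron genes measured in the same libraries, added after the data were seen, Grid2ip over the geometric mean of 8 Purkinje cell markers was 0.0876, 0.114 and 0.0803 in knock-in and 0.108, 0.143 and 0.133 in wild type. Those groups overlapped, since knock-in replicate 2 was above wild-type replicate 1. The Purkinje markers had 4 of 8 called lower by edgeR, against 1.28% of all genes tested, and a median log2 fold change of -0.44. Their summed CPM was 7107 to 8518 in knock-in and 10430 to 11840 in wild type. Calb1, the calcium buffer calbindin, was among the 4, and Pcp2, Ppp1r17, Slc1a6 and the transcription factor Foxp2 did not pass.

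Cbln3 over the geometric mean of 7 granule neuron markers was 3.89, 3.65 and 3.85 in knock-in and 4.85, 4.42 and 4.67 in wild type, with no overlap. For Cbln1 over the same markers the ratio was 1.75 to 2.25 in knock-in and 2.08 to 2.29 in wild type, and the groups overlapped. The 7 granule neuron markers, whose median log2 fold change was -0.14, had 0 called by edgeR and 1 of 7 at an unadjusted p under 0.05, against 18.1% of all genes. Their summed CPM was 2420 to 2955 in knock-in and 2794 to 3172 in wild type. The part of cell numbers in these ratios was not tested.

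**Figure D3:**
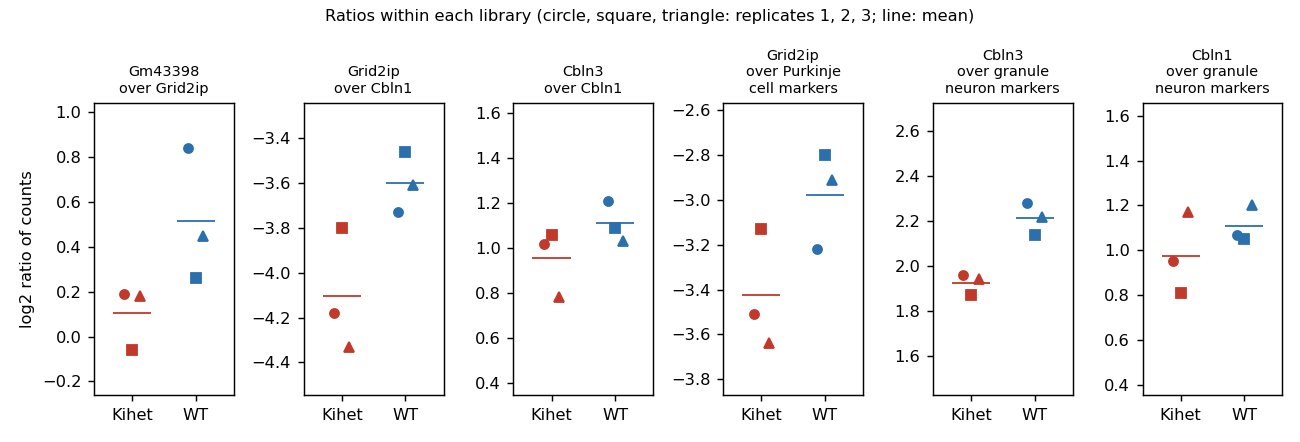
Log2 ratios of counts within each library, with circles, squares and triangles for replicates 1, 2 and 3 of knock-in (red) and wild type (blue) and a line at each group mean. The panels have different levels but the same height in log2 units. The groups are apart for Gm43398 over Grid2ip, Grid2ip over Cbln1 and Cbln3 over the granule neuron markers, and they overlap in the other 3 panels.

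The remaining ligands were rare in these libraries. Cbln2 (ENSMUSG00000024647, chr18:86711110-86718283), a cerebellin of other neuron types, had 10.8, 2.38 and 7.80 CPM in knock-in replicates 1, 2 and 3 and 1.45, 6.30 and 5.17 CPM in wild-type replicates 1, 2 and 3. Libraries of 1 group differed by more than the group means did, with knock-in replicate 2 and wild-type replicate 1 the low ones. The edgeR log2 fold change, 0.71 ± 0.54 (SE, adjusted p 0.529), was 0.25 without knock-in replicate 1 and 1.12 without knock-in replicate 2.

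Cbln4 (ENSMUSG00000067578, chr2:172036233-172043466) had 6.69, 2.51 and 4.51 CPM in knock-in and 1.74, 2.89 and 5.32 CPM in wild type. The same libraries, knock-in replicate 2 and wild-type replicate 1, were the lowest of their groups. Its log2 fold change was 0.47 ± 0.41 (SE; edgeR adjusted p 0.58), with 0.09 without knock-in replicate 1 and 0.97 without wild-type replicate 3. C1ql1 (ENSMUSG00000045532, chr11:102939264-102946688) had 5.41, 3.82 and 5.01 CPM in knock-in and 2.44, 3.39 and 7.85 CPM in wild type. Wild-type replicate 3 was the highest of all 6, and the same libraries as for Cbln4 were the lowest of their groups. The log2 fold change of 0.07 ± 0.36 (SE; edgeR adjusted p 0.943) took either sign as libraries were left out.

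Markers of other cell types and tissues also varied between libraries, not all of them in the same way as these rare ligands. Slc17a6, a glutamate transporter of deep nuclear and brainstem neurons, had 100, 38.4 and 68.5 CPM in knock-in and 45.0, 67.6 and 69.9 CPM in wild type. It was lowest in the same libraries as Cbln2, Cbln4 and C1ql1. The other genes of its marker list, Eomes and Slc6a5, did not share this pattern. Eomes had 5.09, 11.5 and 5.93 CPM in knock-in and 12.4, 13.55 and 8.34 CPM in wild type. For Slc6a5 the values were 58.5, 59.5 and 52.7 CPM in knock-in and 69.9, 67.1 and 76.5 CPM in wild type. The summed brainstem markers were highest in knock-in replicate 1, as were Cbln2 and Cbln4, but were low in all of wild type, where Cbln2 and Cbln4 still differed between libraries. The choroid plexus markers summed to 262, 15.8 and 1288 CPM in knock-in and 508, 489 and 1863 CPM in wild type. Htr5b, the marker used for the inferior olive, the source of climbing fibres, had 0.226 to 0.271 CPM in knock-in and 0.184 to 0.310 CPM in wild type. With the brainstem term in the fit, the log2 fold changes of Cbln2, Cbln4 and C1ql1 were -1.24 ± 0.61, -0.52 ± 0.60 and -0.10 ± 0.61 (SE). They were of the opposite sign and not called. For Cbln4 and C1ql1 the SE was larger than the value itself. Cbln2 went from 0.71 ± 0.54 to -1.24 ± 0.61 (SE) with no call in either fit. The sign is not settled for any of these genes.

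**Figure D4:**
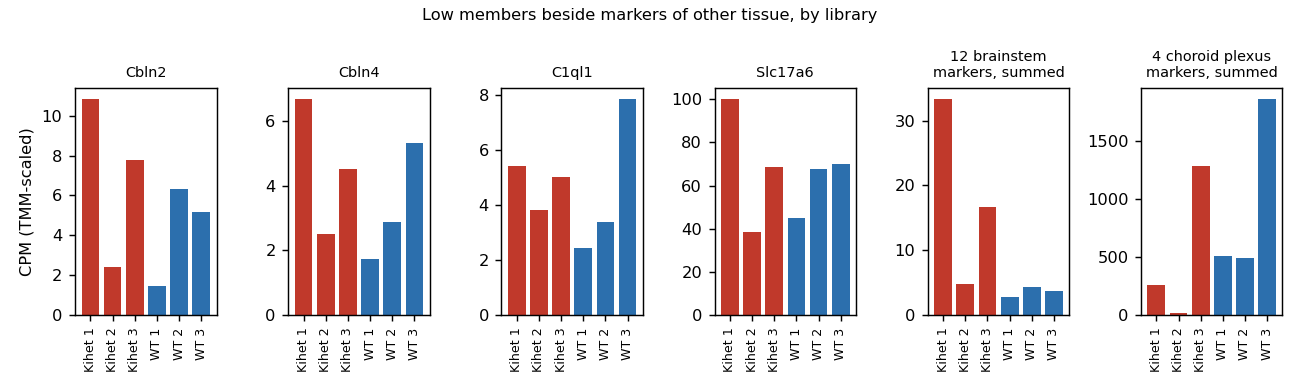
Bars give CPM in each library for Cbln2, Cbln4, C1ql1, the deep nuclear and brainstem marker Slc17a6, and the sums of 12 brainstem and 4 choroid plexus markers, with knock-in in red and wild type in blue. Cbln2, Cbln4, C1ql1 and Slc17a6 are lowest in knock-in replicate 2 and wild-type replicate 1 of their groups.

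Levels were compared between genes as CPM per kilobase of merged exons. Cbln3 was the highest, with 265 ± 25 in knock-in and 365 ± 15 in wild type, followed by Cbln1 with 219 ± 15 in knock-in and 272 ± 14 in wild type (SD, n = 3 each). Gm43398 had 15.2 ± 1.7 CPM per kilobase in knock-in and 35.6 ± 2.5 in wild type, above Grid2ip, which had 5.79 ± 1.3 in knock-in and 10.1 ± 1.4 in wild type. Grid1 had 6.62 ± 0.38 CPM per kilobase in knock-in and 6.03 ± 0.33 in wild type, so Grid2ip and Grid1 could not be ordered in knock-in, while Grid2ip was higher in all 3 wild-type libraries. The merged exons of Grid2ip span 6773 bases and its longest transcript 3865 bases. Per kilobase of its longest transcript, Grid2ip had 10.1 ± 2.2 CPM in knock-in and 17.7 ± 2.5 in wild type, above Grid1 in both groups. The lowest were C1ql1 with 3.22 ± 0.56 CPM per kilobase in knock-in and 3.10 ± 2.0 in wild type, and Cbln4 with 1.57 ± 0.72 in knock-in and 1.1 ± 0.63 in wild type. Cbln2 lay between them with 2.42 ± 1.5 in knock-in and 1.49 ± 0.88 in wild type, and the libraries of these 3 genes overlapped.

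The partners of these proteins were described from a list of 21 genes, of which 20 were tested and C1ql4 fell below the filter. EdgeR called 1 of the 20 lower, Dlg2, and 0 higher, against 1.28% and 0.629% of all genes tested. At an unadjusted p under 0.05 there were 7 of 20, against 18.1% of all genes, and DESeq2 called 2 lower and 0 higher, against 3.05% and 2.41%. Their median log2 fold change was -0.06. The list was chosen with earlier results of these data known.

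Of the 10 intracellular partners of delta receptors, 9 had a negative fold change and 1 was called. Their median log2 fold change was -0.21, against 0.007 over all genes tested. Among the 9, Dlg4 (-0.01 ± 0.11), Grip1 (-0.04 ± 0.16) and Magi2 (-0.05 ± 0.11) had values smaller than their SE. Dlg2, which encodes the postsynaptic scaffold PSD-93, had 330, 385 and 303 CPM in knock-in and 485, 495 and 430 CPM in wild type, a log2 fold change of -0.47 ± 0.10 (edgeR adjusted p 0.0466). That call was lost without any library other than knock-in replicate 2 (adjusted p 0.0752 to 0.181), and with RLE scaling at 0.0532, and GC and length offsets gave -0.31 with a call at 0.0141.

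Shank2, a scaffold that binds delta receptors and Homer proteins, had 170, 222 and 158 CPM in knock-in and 248, 315 and 262 CPM in wild type. The groups did not overlap, and its log2 fold change of -0.59 ± 0.13 (SE) had an edgeR adjusted p of 0.0568. It was called by DESeq2 (adjusted p 0.00106), with library size alone (0.0395), without a filter (1.71e-05), with GC and length offsets (0.00589) and without knock-in replicate 2 (0.00413). In 9 of 16 alternatives it was not called. These included RLE scaling (adjusted p 0.0661), limma-voom (0.0584) and the brainstem covariate (-0.38, adjusted p 0.825). Leaving out any library other than knock-in replicate 2 also gave no call, at adjusted p-values between 0.12 and 0.205. Homer3, a postsynaptic scaffold of Purkinje cells that binds Shank proteins, had 330, 429 and 420 CPM in knock-in and 427, 534 and 498.5 CPM in wild type. The groups overlapped, since knock-in replicate 2 was just above wild-type replicate 1, and the log2 fold change was -0.31 ± 0.12 (SE; edgeR adjusted p 0.202). With GC and length offsets Homer3 was called at -0.55 (adjusted p 0.00365), without a filter it was called at 0.0443, and without knock-in replicate 1 the value was -0.19. Pick1, a PDZ-domain scaffold and the 1 intracellular partner with a positive fold change, had 52.0, 48.4 and 54.8 CPM in knock-in and 42.7, 44.6 and 47.8 CPM in wild type. The groups did not overlap, and its log2 fold change of 0.20 ± 0.08 (SE) had an edgeR adjusted p of 0.249. Pick1 and Adgrb2 were named after their values were seen.

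Of the other 10 partners tested, edgeR called 0, and 2 had an unadjusted p under 0.05, a share near the 18.1% of all genes. Nrxn2, 1 of the 3 presynaptic neurexins to which cerebellins bind, had 274, 372 and 304 CPM in knock-in and 217, 357 and 292 CPM in wild type. The replicates differed more than the groups did (log2 fold change 0.13 ± 0.17, edgeR adjusted p 0.716). Adgrb3, the receptor of C1ql1, had 125, 143 and 120 CPM in knock-in and 154, 145 and 135 CPM in wild type (adjusted p 0.377). Its relative Adgrb2 had 73.7, 77.4 and 81.9 CPM in knock-in and 42.8, 69.7 and 59.95 CPM in wild type, with no overlap and a log2 fold change of 0.43 ± 0.15 (adjusted p 0.171). That value was 0.18 with GC and length offsets and 0.25 without wild-type replicate 1. Neo1, a netrin receptor family member listed as a receptor of Cbln4, had 104 to 125 CPM in knock-in and 124 to 135 CPM in wild type (adjusted p 0.362).

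**Figure D5:**
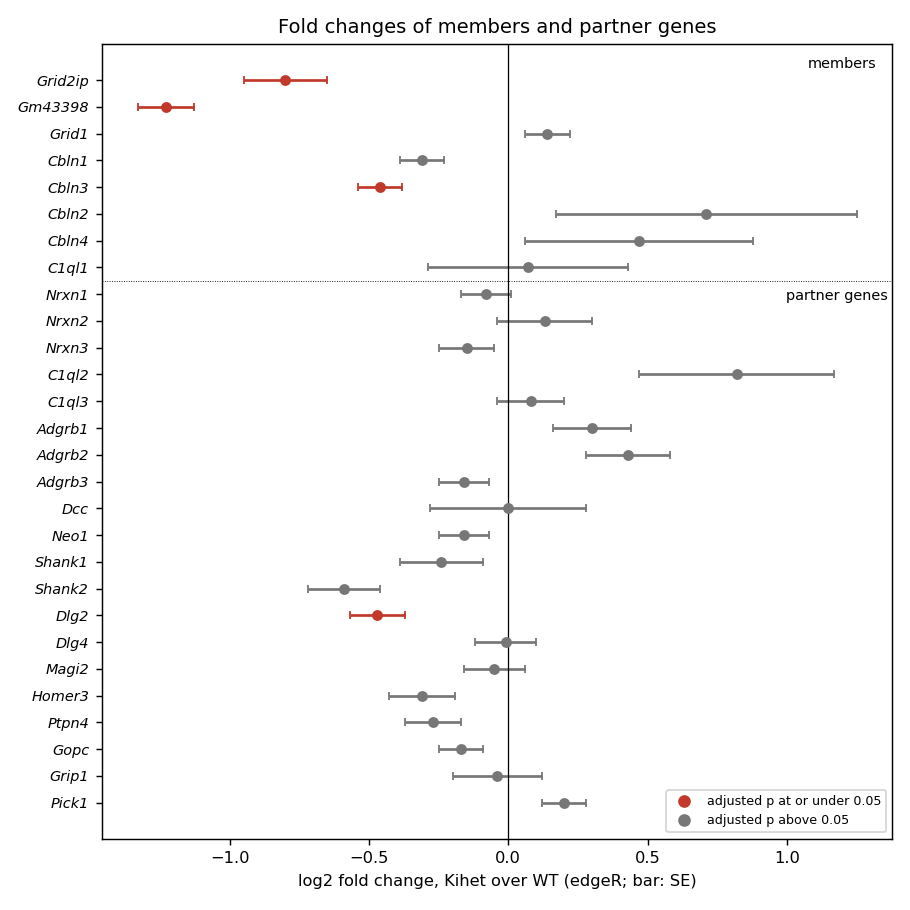
Log2 fold changes, knock-in over wild type, with their SE for the 8 members (above the dotted line) and the 20 tested partner genes. Red points had an edgeR adjusted p at or under 0.05: Grid2ip, Gm43398 and Cbln3 among the members and Dlg2 among the partners, all lower in knock-in.

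Profiles over the 6 libraries were compared with those of members by the root mean square difference of mean-centred log2 CPM. Only genes with a mean of at least 10 CPM entered. Predicted gene models, clone-named genes, pseudogenes and TEC loci were left out, so Gm43398 was not compared. The genes with the smallest difference from a member were listed. For Grid2ip these were Grm4, a metabotropic glutamate receptor, at 0.09, and Shank2 and Ppp1r16b, a regulatory subunit of protein phosphatase 1, both at 0.13. Grm4 had 162, 230 and 184 CPM in knock-in and 253, 380 and 330 CPM in wild type, with replicate 2 the highest of each group as for Grid2ip. For Cbln3 they were Lrp8, a receptor for reelin, at 0.015, Fam78b at 0.023 and Anks1b at 0.028. Lrp8 had 71.2, 83.4 and 70.4 CPM in knock-in and 107, 108 and 98.8 CPM in wild type, in the same order of libraries as Cbln3.

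For Cbln1 the closest were Map2k6, a kinase of the p38 pathway, at 0.035, and Calr, the chaperone calreticulin, and Hapln4, a link protein of the perineuronal matrix, both at 0.04. The profile of Cbln2 had no close match: Sst, the neuropeptide somatostatin, differed by 0.20, and Nrgn, neurogranin, and Baiap3 by 0.34. Sst had 17.5, 5.77 and 14.04 CPM in knock-in and 3.11, 10.3 and 9.79 CPM in wild type, low in the same libraries as Cbln2. Likeness over 6 libraries of 2 genotypes is a description, since all these genes share the libraries and their depth.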

How the data were processed

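The authors deposited raw counts of reads per Ensembl gene in mouse cerebellum, made with HTSeq 0.6.1 after TopHat2 2.0.14, Bowtie2 2.1.0 and bcl2fastq 2.17.1.14 on mm10, per the submitters' processing notes. Libraries of polyadenylated RNA were stranded, per the labels' protocols. Neither the annotation release nor the use of strand by the counting step is given in the sources used here. GENCODE M21, on the same build, matched 48349 of 48709 identifiers, and the others held 0.0503% of counts.

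Counts were tested in R 4.3.3 with edgeR 4.0.16: filterByExpr (minimum count 10, minimum total 15), TMM scaling, a quasi-likelihood test of genotype alone, and Benjamini-Hochberg adjustment over all 16699 genes tested, with a call at 0.05. SE is the absolute log2 fold change over the square root of F. Means carry the SD over 3 samples. The fit was tested on simulated data. Alternatives used DESeq2 1.42.0, limma 3.58.1, other scalings and filters, GC and length offsets, covariates, a replicate block and left-out libraries. Coding sequences were aligned with Biopython 1.88.

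The members and lists were chosen with earlier results of these data known. Some genes of the partner list are not reported here, and its counts leave them out. All members were named. Partner genes were named if called or of the highest mean CPM in their role, with Pick1 and Adgrb2 added after their values were seen. Also named were the 3 most alike profiles for Grid2ip, Cbln1, Cbln2 and Cbln3. P-values judge the genotype difference against the spread between samples of a group, which may be technical. Library pairs differed by more than sampling noise (chi-square per degree of freedom 14.01 to 30.21).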

Additional observations from a re-analysis of the deposited data

How the results depend on the processing

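The number of genes called over the whole table, 318 (213 lower, 105 higher), was 513 with scaling by library size alone (190 lower, 323 higher), 1303 without a filter, 899 with DESeq2, 735 with GC and length offsets, 721 at an adjusted p at or under 0.10 and 3 with the brainstem covariate. It was 39 to 858 with 1 library left out, highest without knock-in replicate 2. Members called numbered 0 with the brainstem covariate and 1 to 3 with 1 library left out, and 3 or 4, all lower, under the other alternatives run. Partners called, 1 of 20, numbered 0 with RLE scaling and with the brainstem covariate, 2 with library size alone, with DESeq2 and at an adjusted p at or under 0.10, 4 without a filter and with GC and length offsets, and 0 to 2 with 1 library left out. With 1 library left out, fewer samples enter each fit. Elsewhere the cause was not tested.

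With the brainstem covariate, Grid2ip, Cbln3 and Gm43398 kept their direction at -0.51, -0.33 and -1.01 without a call. Cbln2, Cbln4 and C1ql1 reversed to -1.24, -0.52 and -0.10, as did Sst (-0.71), Nrgn (-1.42) and Baiap3 (-0.43). This covariate goes partly with genotype, and it widened the SE to 0.61, 0.60 and 0.61 for Cbln2, Cbln4 and C1ql1. With 1 library left out, log2 fold changes were -1.01 to -0.70 for Grid2ip, -0.55 to -0.41 for Cbln3, -0.25 to 0.69 for C1ql1, -0.05 to 0.31 for Nrxn2 and -0.23 to 0.85 for Nrgn. Cbln1 was not called with any 1 library left out (-0.36 to -0.25) or with the brainstem covariate (-0.24). It was called without a filter (-0.31), with DESeq2 (-0.32) and with GC and length offsets (-0.44). Those offsets reversed C1ql1 to -0.29, Adgrb3 to 0.01 and Nrxn2 to -0.04. The log2 level of Grid2ip per kilobase was 2.92 with merged exons and 3.73 with its longest transcript. At CPM values under 8, C1ql1 and Cbln4 rest on 85 to 304 counts a library.

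The labels give both groups replicate numbers 1 to 3. Deviations of same-numbered samples correlated at 0.00, 0.17 and 0.32, and those of other pairs at -0.29 to 0.10. Knock-in replicates 2 and 3 correlated best with their own number, and knock-in replicate 1 did not. Whether samples of the same number share more than the number was not tested. The replicate block gave 2034 calls in all, 4 members and 7 partners, with Cbln1 at -0.31. With the block and the GC and length offsets together there were 1612 calls, 6 partners, Cbln1 at -0.44, C1ql1 at -0.22, Adgrb3 at 0.01 and Nrxn2 at -0.04.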
